A study of Mus musculus with 4 samples.

Results

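Oxidative phosphorylation genes encoded in the nucleus were followed in mouse pre-implantation embryos that had received a morpholino against NKX1-2 or a control morpholino. The members were the rows of the count tables whose symbol begins with Nduf, with Cox4 to Cox8 or with Atp5, the rows Sdha, Sdhb, Sdhc and Sdhd, and Cyc1, Cycs and Romo1. Symbols containing -ps were removed. The rule took 92 of 55453 rows. They comprised 44 genes of complex I (8 of the NADH-binding module, 9 of the ubiquinone-binding module, 19 of the membrane arm and 8 assembly factors), 4 of complex II, Cyc1 and Cycs, 17 of complex IV with Ndufa4, Ndufa4l2 and Cox7a2l beside them, 17 of the ATP synthase, Romo1, and 4 copies that stand outside the textbook subunit list (Cox6c2, Ndufa11b, Ndufb4c and Ndufs6b). GENCODE types these 4 copies as processed pseudogenes, and they were kept because their symbols match the rule. The Uqcr genes of complex III were left out because their rows hold no counts in the morula tables.

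A morpholino is a synthetic antisense molecule that keeps its target RNA from being translated or spliced, and NKX1-2 is a homeobox transcription factor. The groups were NKX1-2 morpholino wells at the blastocyst stage, control morpholino wells at the blastocyst stage, NKX1-2 morpholino wells at the morula stage and control morpholino wells at the morula stage. Each stage had 2 plates of 96 wells, with 48 NKX1-2 and 48 control wells per plate, and the labels gave no strain, embryo age or further treatment. The libraries were labelled as single-cell and their source as embryo. No label tied wells to embryos, so the plate was the replicate (n = 2 per stage). The p-values of stage effects measure the spread between plates. Those of morpholino effects measure how the difference within a plate varies from plate to plate, with the spread pooled over both stages. On every plate the same barcodes marked the NKX1-2 wells and the other barcodes the control wells. The morpholino therefore cannot be told apart from the barcode or from a plate position tied to it.

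Oxidative phosphorylation couples the oxidation of NADH and succinate to the synthesis of ATP in the inner mitochondrial membrane. Complexes I and II pass electrons to ubiquinone, complex III passes them on to cytochrome c, complex IV reduces oxygen, and the ATP synthase uses the proton gradient built along the way. Mouse embryos rely on pyruvate and lactate during cleavage and raise glucose use and oxygen consumption as the blastocyst forms. The subunits come from both genomes, and mitochondria inherited from the oocyte are shared out among the blastomeres before mitochondrial DNA replication resumes.

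The 368 of 384 wells in which at least 2000 genes were detected were added up within each plate for each morpholino. The resulting 8 sums held 1084312 to 2398605 counts. The targeted gene, Nkx1-2, had 0 counts in all 8 sums, so its RNA could not check the labels. The blastocyst sums of both morpholinos had higher summed levels of 12 trophectoderm markers (963 to 1167 CPM, the count relative to the scaled library total) than the morula sums (321 to 348 CPM), and lower summed levels of oocyte and early cleavage markers (50.1 to 74.9 against 108 to 122 CPM), and the summed cumulus cell markers reached at most 3.83 CPM in any sum. Inner cell mass markers were also lower in the blastocyst sums (9 genes, 371 to 419 against 546 to 687 CPM). So were primitive endoderm markers (8 genes, 139 to 218 against 269 to 309 CPM). Between the stages, the tables also differed in the counts of genes with processed pseudogenes. Cytosolic ribosomal protein genes took 21.5% to 22.5% of the counts in blastocyst sums and 10.1% to 11.0% in morula sums, and 344 neighbouring rows held no morula counts at all. The part of this difference in the stage effects below was not tested, apart from the pseudogene copies of the members.

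Most members were expressed. Of the 92, 87 passed the filter on low counts in the fit of all 8 sums, and Cox6a2, Cox8b, Cox8c, Ndufa4l2 and Ndufb4c did not. Together the members held 2.20% and 2.12% of the counts in blastocyst NKX1-2 wells (replicates 1 and 2), 1.76% and 2.08% in blastocyst control wells, 1.86% and 1.83% in morula NKX1-2 wells, and 1.83% and 1.93% in morula control wells. The control sum of blastocyst replicate 1 was the lowest of the 8, and it was also the shallowest. In NKX1-2 wells the blastocyst share exceeded the morula share by 0.316 percentage points (SD 0.0565 from the plates, exact permutation p = 0.333, two-sided, the smallest that 2 against 2 plates allow). In control wells the stages differed by 0.0372 percentage points (SD 0.232, exact permutation p = 1, two-sided), less than the spread between plates. NKX1-2 wells held 0.240 percentage points more than control wells in the blastocyst (SD 0.274), and the difference in the morula was -0.0382 percentage points (SD 0.0903), both within the spread of the plates. The summed counts of a plate do not tell fewer expressing cells from less RNA per cell.

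**Figure D1:**
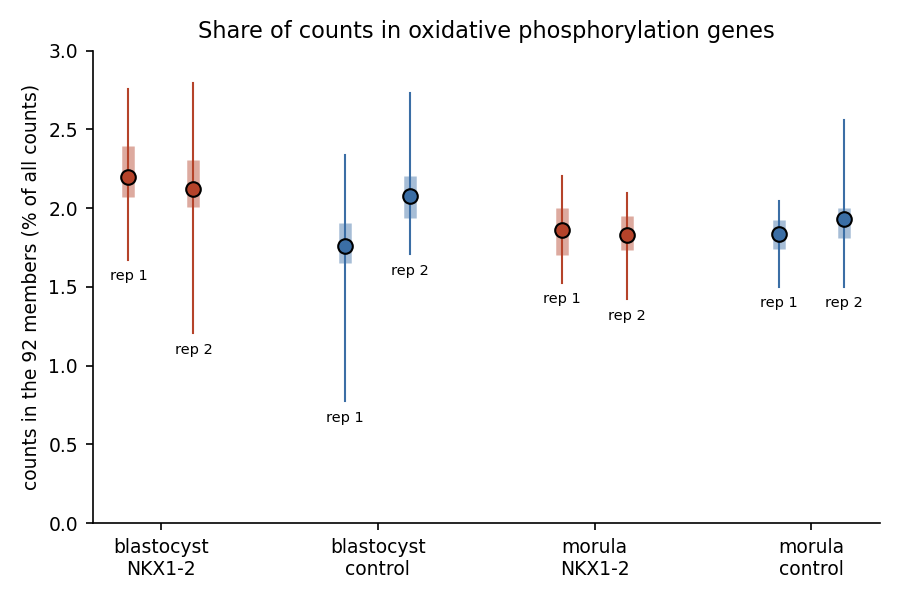
Share of all counts that fell on the 92 members (y axis, percent) in each plate, for NKX1-2 (red) and control (blue) wells of both stages. Circles give the sum of a plate, thick bars the middle 50 percent of its wells and thin lines the range of its wells. The blastocyst NKX1-2 sums lie at 2.20% and 2.12% and the blastocyst control sums at 1.76% and 2.08%.

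Per kilobase of transcript, the highest members were subunits of complex IV and the ATP synthase. How reads were counted is not given, so whether counts scale with transcript length is not known. In blastocyst NKX1-2 wells these were Cox8a (mean 2328 CPM per kb), Cox7c (1970), Cox6c (1712) and Atp5k (1464). In morula control wells the order was Cox6c (1447 CPM per kb), Cox4i1 (1337), Cox8a (1258) and Atp5k (1236). The catalytic ATP synthase subunit Atp5b reached 477 CPM per kb in blastocyst NKX1-2 wells and 440.4 in morula control wells, where the longer Sdha, the flavoprotein of complex II, reached 26.4 and 21.9 CPM per kb.

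For complex IV subunits with several isoforms, the widely expressed isoform carried nearly all counts. Cox4i1 averaged 1020 CPM in blastocyst NKX1-2 wells, 1166 CPM in blastocyst control wells, 783 CPM in morula NKX1-2 wells and 1010 CPM in morula control wells. Cox4i2, the isoform known from lung and from hypoxia, had 3 and 2 counts in blastocyst NKX1-2 wells, 1 and 0 in blastocyst control wells, 20 and 15 in morula NKX1-2 wells and 21 and 10 in morula control wells. Cox6b1 averaged 432 to 557 CPM over the 4 groups, and its testis isoform Cox6b2 14.3 to 33.1 CPM. The liver-type Cox7a2 averaged 423 to 589.7 CPM and the heart and muscle type Cox7a1 17.0 to 29.3 CPM. The muscle type Cox6a2 had 4 counts over all 8 sums, Cox8c 7 and Cox8b 0, where 0 counts allow up to 2.77 CPM in the shallowest sum. Of the 3 genes for subunit c of the ATP synthase, which encode the same mature protein, Atp5g1 averaged 350.2 to 706 CPM, Atp5g3 213 to 245 CPM and Atp5g2 5.01 to 54.9 CPM.

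The blastocyst wells were compared with the morula wells separately for each morpholino. The question was which members change between the ball of blastomeres and the cavitated embryo. More members were higher than lower in the blastocyst with either morpholino. In NKX1-2 wells, 50 of 87 members (57.5%) were called higher and 2 (2.3%) lower, against 21.9% of all genes tested higher and 24% lower (45.9% in either direction) (edgeR quasi-likelihood test, Benjamini-Hochberg adjusted p under 0.05). In control wells, 31 of 86 (36%) were called higher and 3 (3.49%) lower, against 20.1% and 21.6% of all genes (41.7% in either direction). Of the members called higher, 28 were shared, which was 56% of those of the NKX1-2 wells and 90.3% of those of the control wells. The processed pseudogene Ndufs6b was among those called higher with either morpholino, and Ndufa11b among the 3 called lower in control wells. The Ndufs6b call was lost in 7 of 15 alternatives in NKX1-2 and 9 of 14 in control wells. That of Ndufa11b was lost in 6 of 14. The median log2 fold change of the members was 0.48 in NKX1-2 wells, where that of all genes was -0.02, and 0.28 in control wells, where that of all genes was -0.01. Without a scaling factor, the median of all genes shifted to -0.28 in NKX1-2 wells and to -0.29 in control wells, and the members' medians to 0.22 and 0.01, so 26 and 14 members were called higher and 7 and 10 lower. Plates also moved these counts. In NKX1-2 wells 26 members were called higher without blastocyst replicate 1 and 28 without blastocyst replicate 2, and in control wells 13 without morula replicate 1, 15 without morula replicate 2 and 20 without blastocyst replicate 2.

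**Figure D2:**
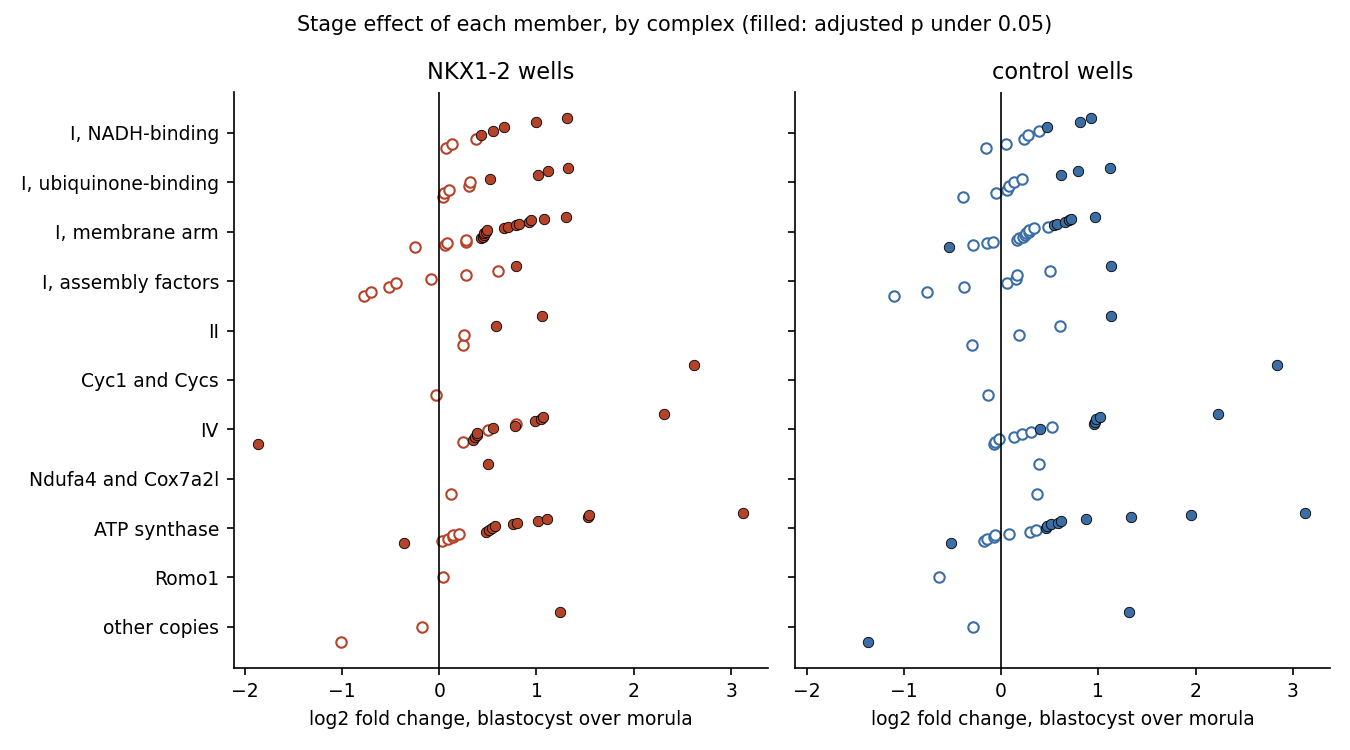
Log2 fold change of blastocyst over morula (x axis) for each tested member, by complex (y axis), in NKX1-2 wells (left, red) and control wells (right, blue). Filled points passed an adjusted p of 0.05. Most points lie right of 0 in both panels, and the assembly factors of complex I are spread around it.

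Members of both arms of complex I were called higher, and few of its assembly factors were. In NKX1-2 wells, 5 of 8 members of the NADH-binding module, 4 of 9 of the ubiquinone-binding module and 14 of 19 of the membrane arm were called higher, and in control wells 3, 3 and 6. Of all genes tested, 21.9% were called higher in NKX1-2 and 20.1% in control wells. Ndufb11 of the membrane arm was called lower in control wells (-0.53, SE 0.20, adjusted p = 0.0331, edgeR test). That call was lost in 5 of 15 alternatives, among them DESeq2. In NKX1-2 wells Ndufb11 was not called (0.28, adjusted p = 0.177). Ndufa5, a small subunit of the ubiquinone-binding module, had 234 and 202 CPM in blastocyst and 90.1 and 84.0 CPM in morula NKX1-2 wells, and 223 and 209 CPM in blastocyst and 134 and 117 CPM in morula control wells. The groups did not overlap. Its log2 fold change was 1.32 (SE 0.17, adjusted p = 5.0e-06) in NKX1-2 wells and 0.79 (SE 0.19, adjusted p = 0.00199) in control wells by the edgeR test, where the call was lost without morula replicate 2 (0.66, adjusted p = 0.0827). Ndufc2, a membrane-arm subunit, was higher by 1.30 and 0.97, Ndufs4, an accessory subunit mutated in mouse models of Leigh syndrome, by 1.31 and 0.81, and Ndufv2, an iron-sulphur subunit of the NADH-binding module, by 0.99 and 0.92 log2 units. Of these, the control call of Ndufs4 was lost in 8 of 15 alternatives, among them DESeq2 and the fits without morula replicate 1 (0.80), morula replicate 2 (0.76) and blastocyst replicate 2 (0.33, adjusted p = 0.50). Of the core subunits described here, Ndufs3 was called higher in both, in control wells not without morula replicate 1 or 2 (0.60 and 0.57), while Ndufs1, Ndufv1, Ndufs7 and Ndufs8 were called in neither, with log2 fold changes of -0.39 to 0.30. Of the 8 assembly factors, Ndufaf2 was called higher in NKX1-2 wells (0.79) and Ndufaf3 in control wells (1.13). The Ndufaf2 call was lost without morula replicate 1, blastocyst replicate 1 or blastocyst replicate 2 (0.58, 0.87 and 0.72), and the Ndufaf3 call without morula replicate 1 or blastocyst replicate 2 (0.76 and 0.92). The median of the assembly factors was -0.26 in NKX1-2 wells and 0.11 in control wells.

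Complex II and cytochrome c differed from gene to gene. Sdhd, a membrane anchor of complex II, was called higher in control wells (34.1 and 51.3 CPM in blastocyst, 20.3 and 19.6 CPM in morula, log2 fold change 1.13, SE 0.32, adjusted p = 0.00623). In NKX1-2 wells Sdhd had 20.4 and 20.7 CPM in blastocyst and 17.6 and 17.1 CPM in morula and was not called (0.24, adjusted p = 0.56). Sdhc, the other anchor, and Sdhb, the iron-sulphur subunit, were called in NKX1-2 wells (1.06 and 0.58), and Sdha in neither. Each of these calls depended on single plates. That of Sdhd was lost without morula replicate 1, morula replicate 2 or blastocyst replicate 2 (adjusted p = 0.0529, 0.0635 and 0.113, the lowest log2 fold change being 0.80 in the last of these), that of Sdhc without blastocyst replicate 2 (0.82, adjusted p = 0.0993) and that of Sdhb without each of the 4 plates (0.48 to 0.62). Cyc1, a haem-carrying subunit of complex III, had 188 to 199 CPM in the blastocyst sums and 189 to 235 CPM in the morula sums, and these overlapped. Cycs, somatic cytochrome c, had 108, 93.6, 99.2 and 113 CPM in the blastocyst sums and 18.4, 14.4, 16.9 and 12.8 CPM in the morula sums.

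In complex IV, 10 of 14 tested members were called higher in NKX1-2 wells (21.9% of all genes were). In control wells 6 of 13 were (20.1% of all genes). Of the NKX1-2 calls, that of Cox7a1 was lost in 11 of 15 alternatives. Those of Cox6b1, Cox7a2 and Cox8a were each lost in 8, and that of Cox4i1 in 6. The control call of Cox6b2 was lost in 8 of 15. Cox7c, a small nuclear subunit, had 1112, 1016, 995 and 1098 CPM in the blastocyst sums and 243, 186, 226 and 223 CPM in the morula sums. No other complex IV member had as large a stage effect. Its log2 fold change was 2.31 in NKX1-2 wells and 2.23 in control wells. Cox5a and Cox5b, which bind on the matrix side, were higher by 0.98 to 1.05 log2 units in every comparison of the stages. The X-linked Cox7b was higher by 1.07 and 0.95, in NKX1-2 wells not called without blastocyst replicate 1 (0.70, adjusted p = 0.0906). Cox4i2 passed the filter on low counts in NKX1-2 wells through its morula counts given above, so its lower value there (-1.86, adjusted p = 0.0194) is a description, and the call was lost with DESeq2 and without each of the 4 plates (-2.27 to -1.50). In the control fit it did not pass the filter.

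In the ATP synthase, 11 of 17 members were called higher in NKX1-2 wells (21.9% of all genes were). In control wells 9 were (20.1% of all genes). Those called included the peripheral stalk subunits Atp5h (1.11 in NKX1-2, 0.87 in control wells) and Atp5f1 (0.51 and 0.47), the central stalk subunits Atp5d (0.80 and 0.51) and Atp5e (0.76 and 0.58), the subunit c gene Atp5g1 (1.01 and 0.61) and Atp5md (1.53 and 1.33), a small subunit that acts in dimer assembly. Atp5h and Atp5md passed under all 15 alternatives with either morpholino. In control wells the calls of Atp5f1, Atp5d and Atp5e were each lost in 6 of 15, among them the fits without morula replicate 1 (0.36, 0.34 and 0.52) and without blastocyst replicate 2 (0.43, 0.22 and 0.46), and that of Atp5g1 in 3 of 15, among them the fit without morula replicate 1 (0.54). In NKX1-2 wells Atp5f1 was not called without blastocyst replicate 1 (0.38). The catalytic head was not called higher. Atp5a1, the alpha subunit, was called lower, with 644 and 602 CPM in blastocyst and 780.5 and 829 CPM in morula NKX1-2 wells (-0.37, adjusted p = 0.0203), and with 523 and 560.5 CPM in blastocyst and 764 and 794 CPM in morula control wells (-0.51, adjusted p = 0.00959). The call in NKX1-2 wells was lost in 5 of 15 alternatives, with DESeq2, in wells that had Xist but no Y-linked counts, and without morula replicate 2, blastocyst replicate 1 or blastocyst replicate 2 (-0.36, -0.40 and -0.32), and the call in control wells in those same wells and without morula replicate 2 (-0.52, adjusted p = 0.0693). The beta subunit Atp5b and the gamma subunit Atp5c1 were not called, with log2 fold changes of -0.18 to 0.14.

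The 4 members with the largest positive stage effects, Atp5g2, Cycs, Cox7c and Atp5l, all had processed pseudogene copies. A copy was counted where at least 20% of its 31-base stretches occur in the member, which gave 47 copies of 27 members. In the blastocyst, the 6 copies of Cycs together held 6.48 CPM in NKX1-2 and 6.41 CPM in control wells, against 15.2 and 16.4 CPM in the morula wells of those morpholinos. Cycs itself averaged 101 and 106 CPM in the blastocyst and 16.4 and 14.8 CPM in the morula. With the counts of the copies added, the log2 fold change of Cycs was 1.76 in NKX1-2 and 1.86 in control wells, against 2.62 and 2.84 on its own row. Atp5g2 had 3.12 and 3.13 on its own row and 1.47 and 1.83 with its copies. Atp5l, with 10 copies, had 1.54 and 1.95 on its own row and 0.17 and 0.18 with its copies (adjusted p = 0.66 and 0.70). Cox7c had 2.13 and 2.09 with its copies. The 2 copies of Atp5g1 held 24.5% of the counts of gene and copies in morula NKX1-2 wells and 23.2% in morula control wells, and with them its log2 fold change was 0.73 in NKX1-2 and 0.36 in control wells, where it was no longer called (adjusted p = 0.0782). Over all members, 49 were then called higher in NKX1-2 wells and 30 in control wells. Among the 42 members without a copy and with under 5% shared sequence, 19 were called higher and 2 lower in NKX1-2 wells, and in control wells 11 and 1 of 41. Of all genes tested, 21.9% were called higher and 24% lower in NKX1-2 wells, and 20.1% and 21.6% in control wells. In control wells this subset therefore lay nearer to all genes than the members together, of which 36% were called higher.

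**Figure D3:**
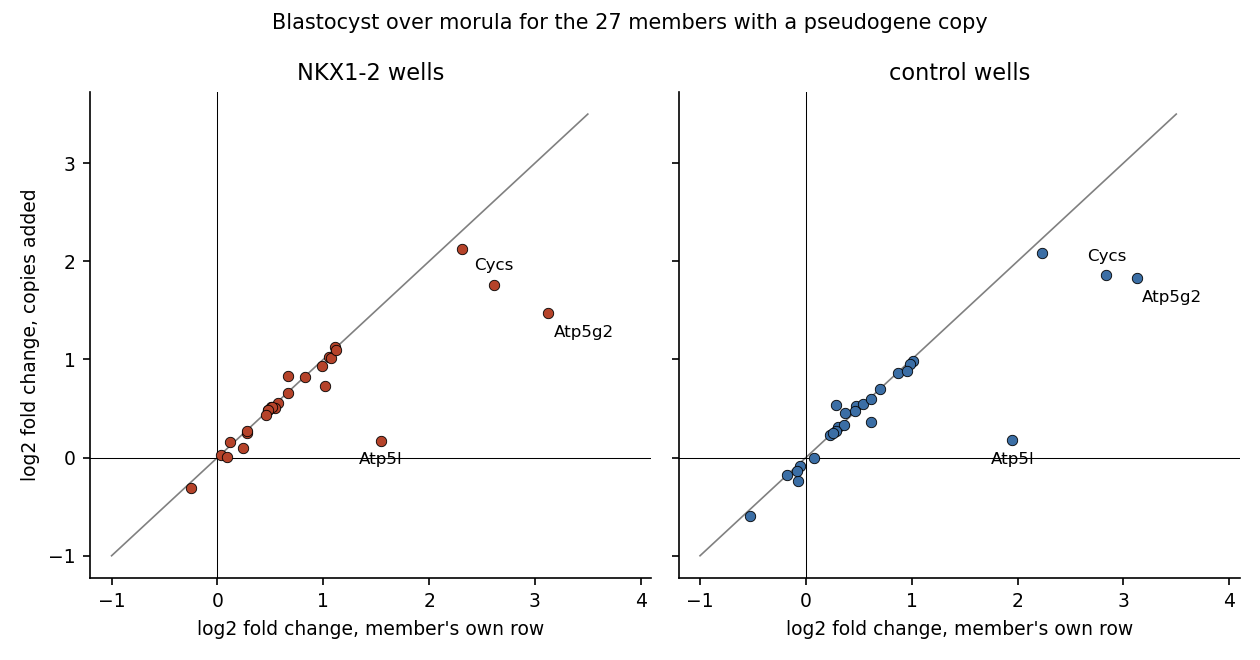
Log2 fold change of blastocyst over morula with the counts of pseudogene copies added (y axis) against that of the member's own row (x axis), for the 27 members with a copy, in NKX1-2 wells (left) and control wells (right). The line marks equal values. Atp5l, Atp5g2 and Cycs lie below the line, and the other members closer to it.

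The 2 stage comparisons were set against each other through the difference of the morpholino effect between stages, which is the same contrast. Although 50 members passed in NKX1-2 and 31 in control wells, 0 of 87 passed the test of the difference (0.0184% of all genes did, 0.0092% in each direction), and 10 had an unadjusted p under 0.05 (6.43% of all genes did), 9 of them positive. DESeq2 and limma voom called 0 as well, and without blastocyst replicate 2 the edgeR test called 11 higher, where it called 94 of all 11926 genes higher and 152 lower. The median difference was 0.19 for members and 0.01 for all genes.

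The NKX1-2 wells were then compared with the control wells of the same plates, to ask which members depend on the morpholino. In the morula 0 of 87 members were called, where 0.552% of all genes were. Of the members, 14 had an unadjusted p under 0.05 (10.7% of all genes did), 5 higher and 9 lower, and DESeq2 called 0 and limma voom 1. In the blastocyst 3 members were called higher (0.386% of all genes were) and 0 lower (0.34% were). The unadjusted p was under 0.05 for 20 members there (13.7% of all genes), 17 higher and 3 lower, and DESeq2 and limma voom each called 2 higher. Over both stages on average, 4 were called higher (4.6%) and 2 lower (2.3%), against 1.56% and 1.33% of all genes (2.9% in either direction). Those higher on average were Romo1, Cox8a of complex IV, and Ndufv3 and Ndufaf2 of complex I, and those lower were Ndufa13 of complex I and Cox4i1 of complex IV. Calls over all genes moved with the plates left out, so the members' counts are given beside them. Without blastocyst replicate 1 or 2, 3 members were called higher and 7 lower in the morula, with 458 and 456 of all genes higher and 375 and 382 lower (30 and 30 with all plates). On average, 6 members were called higher and 7 lower without blastocyst replicate 1, with 597 and 411 of all genes (170 and 145 with all plates), and 16 and 3 without blastocyst replicate 2, with 513 and 558 of all genes. Without morula replicate 1 or 2, 2 members were called higher and 0 lower on average, with 51 and 81 of all genes higher and 41 and 47 lower.

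Romo1 and Cox8a were higher with the NKX1-2 morpholino on all 4 plates and passed under all 15 alternatives of the average effect, which the other 4 members called did not. Their promoters are shown for that reason. The windows hold 250 bases before and 50 after the start that the RefSeq promoter table uses on GRCm38.p6. For Romo1 that start lies downstream of the first base of the GENCODE gene, which is inside the window. They are printed 5′ to 3′ on the strand of the gene, with capitals for matches to the motif of NRF1 (GCGCA, any base, then GCGC, both strands) and to the core of ETS factors such as GABP (CCGGAAG, both strands), which are known regulators of this gene class. The Romo1 window lies at chr2:156143983-156144282 on the plus strand and the Cox8a window at chr19:7217567-7217866 on the minus strand.
Romo1: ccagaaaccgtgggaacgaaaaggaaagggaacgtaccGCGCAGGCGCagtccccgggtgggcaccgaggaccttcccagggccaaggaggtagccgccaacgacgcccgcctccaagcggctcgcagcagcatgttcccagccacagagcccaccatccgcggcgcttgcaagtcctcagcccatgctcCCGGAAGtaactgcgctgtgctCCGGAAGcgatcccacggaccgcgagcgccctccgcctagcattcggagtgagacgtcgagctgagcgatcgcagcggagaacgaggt
Cox8a: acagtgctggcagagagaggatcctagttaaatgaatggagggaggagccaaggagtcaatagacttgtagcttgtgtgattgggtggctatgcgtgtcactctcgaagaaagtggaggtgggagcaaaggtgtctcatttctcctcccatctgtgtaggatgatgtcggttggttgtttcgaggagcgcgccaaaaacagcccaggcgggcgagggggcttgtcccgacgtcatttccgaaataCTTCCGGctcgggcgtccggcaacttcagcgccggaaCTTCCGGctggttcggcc
Romo1 has 1 NRF1 and 2 ETS matches and Cox8a 2 ETS matches, while the window of Ndufv3, which was also called on average and higher on all 4 plates, has 0 matches to either motif. Among 77 windows of 72 matched members, 26.0% hold the NRF1 motif, against 4.60% of all 32851 windows, and 23.4% the ETS core, against 8.86%. The YY1 motif (AAGATGGC, both strands) stood in 13.0% against 2.75%, and in neither of the windows shown. These matches describe letters and were not tested for binding.

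Romo1 encodes a small protein of the inner mitochondrial membrane that modulates reactive oxygen species. The gene lies on chromosome 2 at 156144039 to 156145797 (GRCm38, plus strand). It had 223 and 246 CPM in blastocyst NKX1-2 wells, against 41.6 and 100.3 CPM in blastocyst control wells. In the morula it had 231 and 226 CPM in NKX1-2 wells, against 95.5 and 133 CPM in control wells. The NKX1-2 sums lay within 223 to 246 CPM at both stages, and the control sums, all lower, varied more. The log2 fold change was 1.75 (SE 0.24, adjusted p = 0.0077) in the blastocyst, 1.01 (SE 0.21, adjusted p = 0.0581) in the morula and 1.38 (SE 0.16, adjusted p = 0.00107) on average by the edgeR test. In blastocyst replicate 1, 100% of NKX1-2 wells had a Romo1 count, against 55.8% of control wells, with medians of 189 and 28.6 CPM, and in replicate 2 the shares were 97.7% and 93.0% with medians of 204 and 81.4 CPM. No single well held over 10.3% of a sum. Romo1 shares 14.8% of its stretches with the neighbour Nfs1, whose row was not called (average log2 fold change -0.09, adjusted p = 0.872).

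Cox8a encodes the widely expressed form of the smallest nuclear subunit of complex IV, on chromosome 19 at 7215153 to 7217616 (minus strand). It had 1275 and 1285 CPM in blastocyst NKX1-2 wells, against 501 and 845 CPM in blastocyst control wells, and 1000.1 and 1020 CPM in morula NKX1-2 wells, against 628 and 756 CPM in morula control wells. The groups did not overlap at either stage, and again the NKX1-2 sums lay closer together than the control sums. The log2 fold change was 0.97 (SE 0.15, adjusted p = 0.0154) in the blastocyst, 0.55 (adjusted p = 0.16) in the morula and 0.76 (SE 0.11, adjusted p = 0.00381) on average. Median wells had 1162 and 1113 CPM in blastocyst NKX1-2 wells and 368 and 741 CPM in blastocyst control wells. No other complex IV member was called higher with the morpholino. Cox4i1, the largest nuclear subunit of the complex, was lower on average (-0.28, SE 0.07, adjusted p = 0.0448), with 1035 and 1004.5 CPM in blastocyst NKX1-2 wells, against 1173 and 1160 CPM in control wells, and 798 and 768 CPM in morula NKX1-2 wells, against 959.8 and 1059.5 CPM in control wells. Cox6c was at -0.22 (adjusted p = 0.10) and Cox7c at -0.03 on average.

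**Figure D4:**
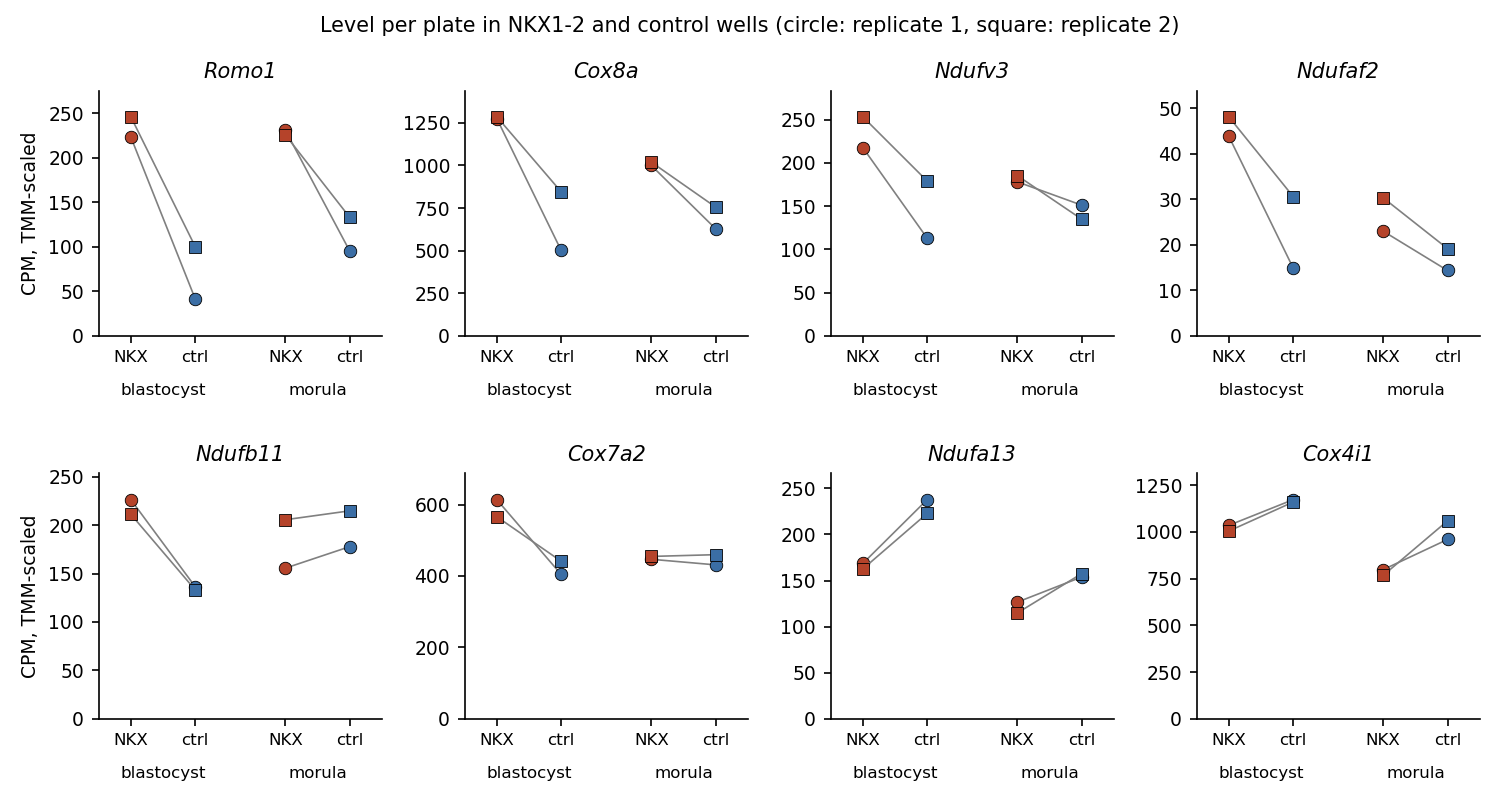
Level of 8 members (y axis, TMM-scaled CPM, from 0) in NKX1-2 (red, left of each pair) and control wells (blue) of each plate, blastocyst plates left of morula plates. Lines join the sums of a plate, circles mark replicate 1 and squares replicate 2. Romo1, Cox8a, Ndufv3 and Ndufaf2 are higher in NKX1-2 wells on all 4 plates, and Ndufa13 and Cox4i1 lower.

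Of the complex I members, Ndufv3, an accessory subunit of the NADH-binding module, had 218 and 254 CPM in blastocyst NKX1-2 wells, against 113 and 179 CPM in control wells, and 178 and 186 CPM in morula NKX1-2 wells, against 151 and 135 CPM in control wells. It was higher on average (0.52, SE 0.11, adjusted p = 0.0168), and in the blastocyst its adjusted p was 0.056. Ndufaf2, an assembly factor, was higher on average (0.83, SE 0.19, adjusted p = 0.029), with 43.9 and 48.2 CPM in blastocyst NKX1-2 wells, against 14.9 and 30.6 CPM in control wells. It shares 65.1% of its stretches with the noncoding gene B230220B15Rik, whose row had at most 4 counts in a sum. Ndufa13, a membrane-arm subunit also known as GRIM-19, was lower on average (-0.42, SE 0.10, adjusted p = 0.0352), with 169 and 163 CPM in blastocyst NKX1-2 wells, against 238 and 223 CPM in control wells. Ndufa13 overlaps Tssk6 (28.3% of its stretches), which had at most 6 counts in a sum. The call of Ndufv3, Ndufaf2, Ndufa13 and Cox4i1 was lost without either morula plate, with average log2 fold changes of 0.59, 0.85, -0.46 and -0.32 without morula replicate 1 (adjusted p = 0.0931, 0.146, 0.334 and 0.182) and of 0.49, 0.86, -0.36 and -0.21 without morula replicate 2 (adjusted p = 0.221, 0.135, 0.54 and 0.589). Next in the order of p, and not called on average, were Ndufa12 (0.39, adjusted p = 0.0536) and Ndufab1, the mitochondrial acyl carrier protein (0.49, adjusted p = 0.0717).

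Complex II, cytochrome c1, cytochrome c and the ATP synthase had 0 members called for the morpholino in the morula, in the blastocyst or on average. Sdhd averaged -0.63 (adjusted p = 0.0915), with 20.4 and 20.7 CPM in blastocyst NKX1-2 wells, against 34.1 and 51.3 CPM in control wells. Sdha stood at 0.30 and Sdhb at -0.37. Of the ATP synthase, Atp5l had an average log2 fold change of 0.29 (adjusted p = 0.657) and Atp5md of 0.27 (adjusted p = 0.138), and Atp5md was higher on all 4 plates.

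The members as a set had small effects per plate. The median log2 fold change of the 87 members was 0.18 and 0.02 in blastocyst replicates 1 and 2 and -0.02 and -0.12 in morula replicates 1 and 2, with 64, 47, 40 and 25 members above 0. On all 4 plates, 14 members were higher (16.1%, against 12.2% of all genes tested) and 10 lower (11.5%, against 11.8%), shares close to those of all genes. Without blastocyst replicate 1, whose control sum had the low member share, 4 members were called higher and 2 lower in the blastocyst, with 356 and 209 of all genes. Without blastocyst replicate 2, 16 were called higher and 0 lower, with 291 and 344 of all genes, against 42 and 37 with all plates.

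**Figure D5:**
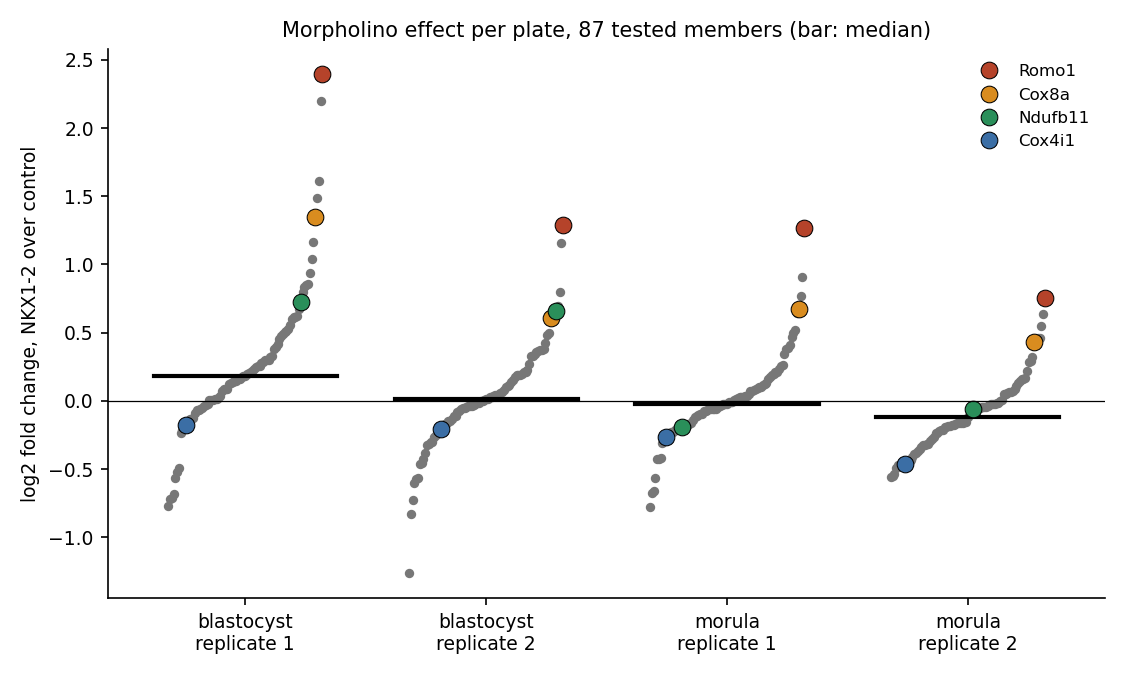
Log2 fold change of NKX1-2 over control wells (y axis, log CPM computed with prior count 2) for each of the 87 tested members on each plate (x axis), members sorted within a plate, with bars at the medians and Romo1, Cox8a, Ndufb11 and Cox4i1 in colour. Romo1 is the highest member on all 4 plates, and Cox4i1 lies below 0 on all 4.

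The 3 X-linked members were read beside the sex class of the wells, since NKX1-2 and control wells differed in it. Xist-only wells had Xist counts and no counts of the Y-linked genes. They were 74.5% and 45.5% of blastocyst NKX1-2 wells, against 34.9% and 14.0% of blastocyst control wells. In the morula they were 20.8% and 48.9% of NKX1-2 wells, against 52.1% and 56.3% of control wells. Wells with both Xist and Y-linked counts, outside that class, were 22 of 44 NKX1-2 and 19 of 43 control wells in blastocyst replicate 2. Each other sum held 4 to 8 such wells. Ndufb11, a membrane-arm subunit, had 227 and 211 CPM in blastocyst NKX1-2 wells, against 137 and 133 CPM in control wells, and was called higher there (0.70, SE 0.15, adjusted p = 0.0389). The call was lost without morula replicate 1 (0.71, adjusted p = 0.0774) or 2 (0.70, adjusted p = 0.088), in a fit that pools the spread of all plates. In the morula it had 156 and 206 CPM in NKX1-2 wells, against 178 and 215 CPM in control wells (-0.13, adjusted p = 0.82). In Xist-only wells, the blastocyst value was 0.41 (adjusted p = 0.702). Cox7b stood at 0.12 and Ndufa1 at -0.06 in the blastocyst, and in those wells alone at -0.09 and -0.60, none called. In the same wells Romo1 stood at 1.61 (adjusted p = 0.0287) and Cox8a at 0.73 (adjusted p = 0.0994) in the blastocyst, from as few as 6 wells of a plate. The summed trophectoderm markers were also higher in blastocyst NKX1-2 wells (1133 and 1167 CPM) than in control wells (963 to 1028 CPM), and 0 of 11 tested markers were called there. The part of cell makeup in the morpholino effects was not tested.

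Other mitochondrial genes were read from lists chosen for this tissue. Of 39 tested assembly factors of the respiratory complexes outside the name rule, 1 was called for the morpholino on average, Timmdc1, a complex I assembly factor (1.19, adjusted p = 0.0295), where 2.9% of all genes were called. Of 16 tested regulators of mitochondrial biogenesis, Esrra, a nuclear receptor that drives this programme, was called higher on average (0.99, adjusted p = 0.0471). It had 11.8 and 14.7 CPM in blastocyst NKX1-2 wells, against 3.20 and 6.13 CPM in control wells, which rest on 3 and 8 counts. Its blastocyst effect was not called (1.46, adjusted p = 0.157, edgeR test). In the morula Esrra had 39.1 and 42.4 CPM in NKX1-2 wells, against 29.6 and 27.4 CPM in control wells. Of 7 tested subunits encoded in the mitochondrial genome, mt-Cytb of complex III was called lower on average (-0.32, adjusted p = 0.0139). The 13 enzymes of the tricarboxylic acid cycle and 13 carriers and porins had 0 called for the morpholino in the morula, in the blastocyst or on average.

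Between stages, these lists are set beside all genes tested, of which 21.9% were called higher and 24% lower in NKX1-2 wells, and 20.1% and 21.6% in control wells. Of the assembly factors, 19 of 38 were called higher and 2 lower in NKX1-2 wells, and 18 and 1 in control wells, among them Cox17, a copper chaperone (0.90 and 0.95), and Coa3 (1.06 and 0.89). Sco2 and Cox20, both called higher in NKX1-2 wells, had at most 1 count in any morula sum and 20 to 45 in the blastocyst sums. They passed the filter on low counts through the blastocyst sums, so their part in the number called is a description. Of the 13 cycle enzymes, 7 were called higher in NKX1-2 and 8 in control wells and 0 lower, led by Idh3a (2.22 and 2.22). Of the mitochondrially encoded subunits, 5 of 7 were called lower and 1 higher (mt-Nd1) with either morpholino. Of the regulators, 3 were called higher, Tfam, Tfb1m and Ssbp1, and 8 lower in NKX1-2 and 6 in control wells, among them Yy1 (-1.65 and -1.43), Esrra (-1.61 and -2.52) and Polrmt, the mitochondrial RNA polymerase (-1.67 and -1.80). Of the trophectoderm markers, 8 of 11 tested were called higher and 1 lower in NKX1-2 wells, and 7 and 1 of 9 in control wells. Of the carriers and porins, 5 of 12 were called higher and 3 lower in NKX1-2 wells, and 4 and 3 in control wells, among them the pyruvate carrier genes Mpc1 (1.91 and 1.59) and Mpc2 (-0.54 and -0.78).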

How the data were processed

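The authors deposited whole-number counts per gene and well barcode for 4 plates, without normalization, and a table that gives the morpholino of each barcode. Lysis with a detergent, polyA capture and a TruSeq library are described per the labels' protocols, while the descriptions name 10x Genomics. Per the submitters' processing notes, TopHat2, GRCm38 and mm10 were used. How reads were counted, with or without strand or molecular identifiers, is not given in the sources used here, so reads shared by overlapping genes or copies cannot be assigned.

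Counts of wells with at least 2000 detected genes were summed per plate and morpholino. After filterByExpr and TMM scaling, edgeR 4.0.16 (R 4.3.3, limma 3.58.1) fitted robust quasi-likelihood models. The morpholino was tested in 8 sums with a block for the plate, which both morpholinos share, and the stages in the 4 NKX1-2 and the 4 control sums apart. Adjusted p-values (Benjamini-Hochberg over all genes tested) under 0.05 were called. The 344 rows without morula counts were left out. The models were tested on simulated data. CPM are TMM-scaled, SE are standard errors of the log2 fold change, and levels per kilobase use the median length of the best-ranked GENCODE transcripts. Of the members, 91 matched GENCODE by symbol.

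Members, lists, tests and alternatives were chosen with earlier results of these data known. Members were named if they passed, by the 3 largest changes of each complex and direction where more than 30 passed, and by smallest p up to 20 where fewer passed. Complex II, Cyc1, Cycs, Romo1, X-linked members and paralogs were added, and of other lists members that passed. Atp5b, Atp5c1, Atp5d, Atp5e, Atp5f1, Atp5h and the core complex I subunits given were named after their values were seen. Alternatives were RLE factors, no scaling, DESeq2 1.42.0, limma voom, no filter on low counts, other well filters, no plate block, a replicate block and each plate left out. Adding pseudogene copies was chosen after seeing the data. Floors use 3 counts and cover counting error only. Python 3.11.15, pandas 2.3.3, scipy 1.17.1 and matplotlib 3.10.9 were used.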

Additional observations from a re-analysis of the deposited data

Results flagged for a closer look

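The Uqcr genes of complex III stand outside the comparisons above, because their rows have no morula counts. In the blastocyst sums 8 Uqcr genes held 0.221% of the counts, which drew attention as a signal in rows that no comparison used. Fitted on the 4 blastocyst sums by themselves, none of the 8 passed (130 of 8454 genes tested did). Uqcr10, a small subunit, was the highest, with 600.3 and 613 CPM in NKX1-2 wells, against 652 and 630.5 CPM in control wells (log2 fold change -0.08, adjusted p = 0.909, edgeR quasi-likelihood test).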

How the results depend on the processing

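With 2 plates per stage, counts of called members depended on the setting. In the morula, 1 member was called higher with no scaling factor, with limma voom, from wells with at least 4000 genes, from Xist-only wells and without each gene's highest well, 2 with no filter on low counts, and 3 higher and 7 lower from the morula plates alone. In the blastocyst, 10 were called higher with no filter, 5 without the highest well and 1 from Xist-only wells. On average, DESeq2, the fit with no plate block and Xist-only wells each gave 2 higher and 0 lower, and no scaling factor and wells with at least 4000 genes gave 1 lower. Between stages in control wells, no scaling factor gave 14 higher and 10 lower, no filter 19 and 6, Xist-only wells 14 and 0, and DESeq2 1 lower. In NKX1-2 wells, no scaling factor gave 26 and 7, no filter 5 lower, Xist-only wells 32 and 0, and DESeq2 0 lower. Leaving out each plate in turn gave 0 to 3 higher and 0 to 7 lower in the morula, 2 to 16 and 0 to 2 in the blastocyst, 2 to 16 and 0 to 7 on average, 0 to 11 higher for the difference, 13 to 34 and 1 to 4 between stages in control wells and 26 to 34 and 0 to 1 in NKX1-2 wells. Without ribosomal protein and mitochondrially encoded genes in the denominator, the member share differed between stages by 0.430 percentage points in control and 0.798 in NKX1-2 wells. The causes were not tested.

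With the replicate number as a block between stages, 29 members were called higher and 3 lower in control wells, and 50 and 2 in NKX1-2 wells. Deviations of same-numbered plates correlated at 0.0251 and -0.00201. Those of NKX1-2 and control sums, which do share a plate, correlated at 0.257 in the morula and -0.000704 in the blastocyst. A value near 0 therefore cannot tell whether the numbers pair plates. Romo1 and Cox8a passed on average under all 15 alternatives (log2 fold changes 1.16 to 1.72 and 0.58 to 0.95), while Cox4i1 failed in 7, Ndufa13 in 5, Ndufv3 in 5 and Ndufaf2 in 4 of 14. In the blastocyst Ndufb11 failed in 7 of 16 (adjusted p 0.00216 to 0.702) and Cox8a in 1. Of the largest stage effects, Cox7c, Cycs, Atp5g2, Atp5md and Cox5a passed under all 15, and Atp5l failed in 3 in NKX1-2 and 1 in control wells. At these depths, 0 counts allow up to 2.77 CPM in the shallowest sum.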
